A study of Mus musculus with 17 samples.

Results

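The interferon-inducible GTPases are large GTP-binding proteins that cells make in quantity after interferon. 10 of these genes were followed in mouse leukaemia cells carrying 5 forms of the NF-kB subunit p65/RelA. They were taken as every non-control probe whose gene name in the array files is Gbp2, Gbp3, Gbp4, Gbp6 or Gbp7 (the guanylate-binding family) or Igtp, Irgm1, Irgm2, Iigp1 or Ifi47 (the immunity-related family). This gave 14 probes, 7 for each family, of 39429 on the array, and 10 of 30199 gene names. The rule uses gene names and no measured value, although the genes were picked with results of these data known.

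RNA came from DA1-3b, a mouse leukaemia line that carries Bcr-Abl, of the strain given as mouse C3H eOuJ. All groups share that line, its growth in DMEM with serum and transfection with a plasmid. The plasmid coded for wild-type p65/RelA (WT, 4 arrays), the non-cleavable point mutant D361E (4 arrays), the N-terminal fragment 1-361 (3 arrays), the C-terminal fragment 362-549 (3 arrays), or both fragments together (1-361+362-549, 3 arrays). The design asks which genes respond to intact p65, to p65 that cannot be cut, and to the pieces that cutting leaves. Cells with an empty plasmid are named in the treatment protocol and were not analysed here, so every difference is relative to another form of p65 and not to cells without one. This is a single cell line, and the labels do not say whether expression was transient or stable, whether the cells' own p65 remained, or whether the arrays of a group came from separate cultures. Each p-value therefore measures the spread between arrays, which may be partly technical. The transfected forms themselves were not checked here.

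As background, guanylate-binding proteins coat the vacuoles of intracellular pathogens and help to start inflammasome signalling. The immunity-related GTPases attack the same vacuoles. Irgm1, Irgm2 and Igtp are the regulatory members that guard the cell's own membranes, while Iigp1 and Ifi47 belong to the effector type. Interferon-gamma acts on both families through the gamma-activated site (GAS) and through interferon regulatory factors, which bind the interferon-stimulated response element (ISRE). NF-kB, to which p65 belongs, can add to the induction of some of these genes.

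Promoter windows are shown because the design varies a DNA-binding protein, for the called members with a motif match (Gbp2, Gbp3, Gbp7, Irgm1 and Irgm2) and for Igtp, whose window is set beside that of Irgm2. Each window runs 5′ to 3′ on the strand of the gene, from RefSeq sequence on GRCm38.p6, and the capitals mark a match to a motif on either strand. For 7 of the 10 genes a window of 300 bases was searched, from 250 before to 50 after the start site. Gbp4, Gbp6 and Iigp1 were not matched.
Gbp2, ISRE core, chr3:142620594-142620623, plus strand: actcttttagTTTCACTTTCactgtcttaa
Gbp2, NF-kB consensus, chr3:142620660-142620689, plus strand: gcaaaaatctGGAACTTCCCgggttactac
Gbp3, ISRE core, chr3:142559989-142560018, plus strand: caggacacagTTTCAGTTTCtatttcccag
Gbp7, ISRE core, chr3:142530273-142530302, plus strand: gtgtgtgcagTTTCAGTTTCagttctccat
Igtp, GAS, chr11:58199501-58199530, plus strand: aactagccatTTCTAGGAActgaaactgaa
Irgm2, GAS, chr11:58214892-58214921, plus strand: aactagccatTTCCAGGAActgaaactgaa
Irgm1, ISRE core, chr11:48871425-48871454, minus strand: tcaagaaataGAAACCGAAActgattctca

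The ISRE core was searched as GAAA followed after any pair of bases by GAAA. It was present for 6 of the 7 genes searched (Gbp2, Gbp3, Gbp7, Igtp, Irgm1 and Irgm2). By window this was 6 of 8, against 3.44% of all 32851 promoters. The GAS, searched as TTCNNNGAA, was present for 3 of the 7 (Gbp7, Igtp and Irgm2), or 3 of the 8 windows, against 8.3% of all promoters. The NF-kB consensus was present for Gbp2 alone, in 1 of the 8 windows, against 8.46% of all promoters. Its match in Gbp2 begins 7 bases after the start site, while the ISRE core begins 59 bases before it. The windows printed for Igtp and Irgm2 hold the same base at 29 of 30 places, and in both the GAS is followed by an ISRE core that overlaps the window's end. For Ifi47, and in a second window of Gbp3, no match to these 3 motifs was found. These matches are letters in a sequence, and binding was not measured.

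Levels are given as log2 of the processed signal relative to the 75th percentile of the same array, so a difference of 1 is a doubling. A probe on an array counts as detected when the scanner software marks it well above background. 11 of the 14 probes were detected throughout 1 or more groups and so entered the tests, 5 of them guanylate-binding and 6 immunity-related, and each of the 10 genes kept at least 1. In all, 8 were detected on all 17 arrays (Gbp6, Gbp7 and the 6 immunity-related probes tested). The dimmer probes of Gbp7 and Iigp1 were detected on no array and the dimmer probe of Gbp6 on 3. That last probe lists accessions of both Gbp6 and Gbp10, so it cannot separate those genes. No probe was saturated. A difference is called where its adjusted p over all probes tested was under 0.05, and other settings include normexp, a model-based background correction, and the slide that carried each array as a block. Because Gbp2, Gbp3 and Gbp4 passed through the groups where they were high, the counts of passing probes support nothing by themselves.

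In mm9, the build of the array design, the Gbp2 probe lies at 142300719 to 142300778, the Gbp3 probe at 142236032 to 142236091 and the brighter Gbp7 probe at 142209379 to 142209438, all on the plus strand of chromosome 3. The Gbp4 probe lies at 105544852 to 105544911 and the brighter Gbp6 probe at 105700056 to 105700115 on the minus strand of chromosome 5. On chromosome 11 the Ifi47 probe lies at 48910402 to 48910461, the Igtp probe at 58020927 to 58020986 and the Irgm2 probe at 58036093 to 58036152 on the plus strand, with the brighter Irgm1 probe at 48679069 to 48679128 on the minus strand. The brighter Iigp1 probe lies at 60551352 to 60551411 on chromosome 18. No annotation of mm9 was used here, so exons and untranslated regions are not given.

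The 75th percentile of the signal averaged from 678 (362-549) to 1040 (1-361+362-549) over the groups. Over single arrays it ran from 636 (362-549) to 1210 (1-361+362-549). The scaling removes this factor from the levels but does not alter which probes were marked well above background. Of the 8 markers fixed for a myeloid line, Ptprc, Spi1, Csf2rb, Il3ra and Itgam were detected on all 17 arrays, Cd33 and Mpo on 1 each and Kit on none. Markers of other cell types were not all absent. The macrophage markers Csf1r, Cd68 and C1qb were detected on all 17 arrays and Adgre1 on 14. Cd3d, Cd3e, Cd4, Lck, Cd79b, Cd22, Siglech, Pecam1 and Kdr were also detected on all 17. Other markers of the same lists, among them Cd79a, Ms4a1, Cd8a, Mrc1 and Mertk, were detected on none. No natural killer cell or fibroblast marker passed the filter on dim probes.

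The guanylate-binding genes gave the large differences between the forms of p65, and they did not move as 1 group. Gbp2 and Gbp3 were low with the C-terminal fragment, while Gbp4 was low with both fragments together. The immunity-related genes stayed within a narrower range, and Ifi47 was higher with both fragments than with any other form. An F-test over the 4 contrasts with WT (limma) called 5 of the 11 probes, against 7.55% of the 19774 probes tested. They were Gbp4 (adjusted p = 2.54e-05), Gbp2 (0.00011), Ifi47 (0.000658), Gbp3 (0.00235) and the brighter Irgm1 probe (0.0462). The other 6 had an adjusted p from 0.109 to 0.788. In RNA of whole cultures, fewer cells of a kind and less RNA per cell cannot be told apart.

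**Figure D1:**
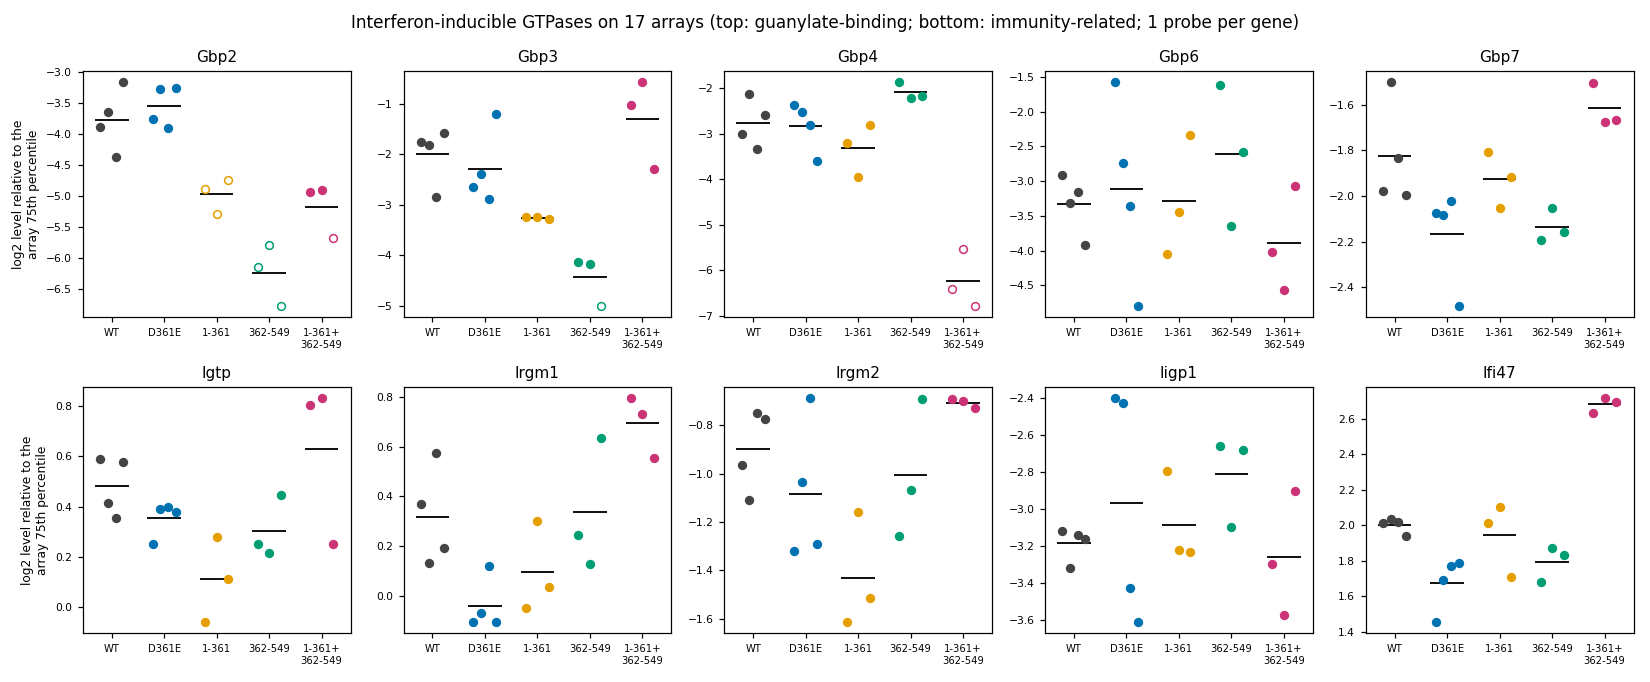
Log2 level relative to the 75th percentile of the array for 1 probe per gene, with each array as a point, group means as bars, and open circles where the probe was not well above background. Gbp2 is open in all arrays of 1-361 and 362-549, Gbp4 is open in all 3 arrays of 1-361+362-549, and Ifi47 sits at 2.63 to 2.71 there, above all other arrays.

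Gbp2, a guanylate-binding protein of the chromosome 3 cluster, was detected with intact p65 and near background with single fragments. Its log2 levels were -3.88, -3.64, -4.37 and -3.16 on the 4 WT arrays and -3.75, -3.27, -3.90 and -3.25 on the 4 D361E arrays. They were -4.88, -5.30 and -4.74 with 1-361, and -6.14, -5.80 and -6.78 with 362-549. With both fragments they were -4.93, -4.91 and -5.68. All 8 arrays of intact p65 were higher than all 9 arrays with a fragment, and the probe was not well above background on any array of the single fragments nor on 1 of the 3 with both. The fall of Gbp2 between WT and 362-549 was at least 1.84-fold (measured means -6.24 and -3.76, fitted difference -2.48 ± 0.30 SE, limma adjusted p = 0.000458). That bound takes, for each dim array, the higher of the lowest detected signal and the probe's own signal. The difference had the same sign in each of the 3 slides that hold both groups, from -3.13 to -1.43.

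With both fragments Gbp2 fell by 1.41 ± 0.30 against WT (limma adjusted p = 0.0125), with 2 of the 3 arrays above background. This call was lost without scaling (adjusted p = 0.14), with quantile normalization (0.0964) and with slide as a block (0.363), and the difference in the 1 slide with both groups was -1.03. With 1-361 the means were -4.97 and, in WT, -3.76, at least 2.01-fold apart, and the difference did not pass (adjusted p = 0.145). In mean level D361E (-3.54) and WT (-3.76) stood above the 3 groups with a fragment, and no order is given among those 3 because 7 of their 9 arrays were not well above background. D361E and WT differed by 0.22 (95% interval -0.38 to 0.82).

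Gbp3, its neighbour in the same cluster, shared the low level with 362-549 but not with both fragments. Its log2 levels were -1.76, -1.82, -2.84 and -1.58 with WT, and -2.66, -2.39, -2.88 and -1.21 with D361E. They were -3.25, -3.24 and -3.28 with 1-361, and -4.13, -4.18 and -5.00 with 362-549, where the last array was not well above background. With both fragments they were -1.03, -0.57 and -2.28. The 362-549 arrays were the lowest 3 of the 17, the 1-361 arrays came next, and the arrays with both fragments overlapped WT and D361E.

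Gbp3 fell by 2.43 ± 0.44 with 362-549 against WT (limma adjusted p = 0.0126; -3.18 to -1.34 within slides). The call was lost with slide as a block (adjusted p = 0.0637), without replicate 3 of 362-549 (0.0942) and without replicate 2 of WT (0.0506). Gbp2 and Gbp3 were thus 2 of 11 GTPase probes called lower with 362-549, where 0.622% of all probes were called in either direction and 0.415% lower, and 0 of 11 were called higher. With both fragments Gbp3 stood 3.14 ± 0.47 above 362-549 (adjusted p = 0.000475) and 1.96 ± 0.47 above 1-361 (0.0185), and its 0.71 ± 0.44 above WT did not pass (0.437). The difference from 362-549 kept its call in all 25 other settings, although no slide held arrays of both groups. That from 1-361 was lost with normexp, with slide as a block, and without any 1 of 5 arrays (replicate 1 or 2 with both fragments or any of 1-361, adjusted p from 0.0522 to 0.108). With 1-361, Gbp3 differed from WT by -1.26 ± 0.44 (adjusted p = 0.454), and no array of these groups overlapped.

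Gbp4, a guanylate-binding protein of the chromosome 5 cluster, was near background with both fragments and detected with every other form. Its log2 levels were -3.01, -2.13, -3.34 and -2.60 with WT, -2.37, -2.54, -2.82 and -3.59 with D361E, and -3.20, -3.95 and -2.81 with 1-361. With 362-549 they were -1.87, -2.23 and -2.17. With both fragments they were -6.41, -5.53 and -6.78, none of them well above background. The 3 arrays with both fragments were lower than the other 14, which overlapped among the groups apart from 362-549, whose arrays were all above those of D361E and 1-361.

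Against WT, the fall of Gbp4 with both fragments was at least 5.31-fold (measured means -6.24 and -2.77, fitted difference -3.47 ± 0.37, limma adjusted p = 2.32e-05), and the difference was -2.52 in the 1 slide with both groups. It was at least 5.10-fold lower than with D361E (adjusted p = 1.9e-05), at least 3.63-fold lower than with 1-361 (0.000264) and at least 8.52-fold lower than with 362-549 (6e-06). With 362-549 alone Gbp4 was 0.68 ± 0.37 above WT (adjusted p = 0.714). With 1-361 alone the difference was -0.55 ± 0.37 (adjusted p = 0.818). Each of the 4 calls of Gbp4 was kept in every other setting that tested the probe except normexp background correction. No slide held arrays of both 362-549 and 1-361+362-549, so that comparison lies between slides.

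Gbp7 differed less, and the estimates of Gbp6 were imprecise. Against WT, Gbp6 was fitted at 0.71 ± 0.65 with 362-549 and -0.56 ± 0.65 with both fragments. Gbp6, also in the chromosome 5 cluster, spread over -4.80 to -1.57 in D361E alone and was called in none of the 10 contrasts. Its arrays ranged from -3.93 to -2.91 with WT, -4.05 to -2.34 with 1-361, -3.64 to -1.62 with 362-549 and -4.57 to -3.07 with both fragments, and all groups overlapped. Gbp7, of the chromosome 3 cluster, read -1.98, -1.50, -1.83 and -1.996 with WT and -2.08, -2.08, -2.02 and -2.48 with D361E. It read -1.81, -2.05 and -1.92 with 1-361, -2.20, -2.05 and -2.16 with 362-549, and -1.51, -1.68 and -1.67 with both fragments. The arrays with both fragments were above all those of D361E, 1-361 and 362-549 but overlapped WT.

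Gbp7 was higher with both fragments than with D361E by 0.55 ± 0.15 (limma adjusted p = 0.0314) and than with 362-549 by 0.52 ± 0.16 (0.0432). Both calls were lost with normexp, with no filter on dim probes, with slide as a block and without any 1 of several arrays. Against WT the difference with both fragments was 0.21 ± 0.15 (adjusted p = 0.505). The 2 probes of Gbp7 correlated at -0.11 over the 17 arrays and those of Gbp6 at 0.07, with the dimmer probe of each mostly at background.

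Ifi47, an effector-type immunity-related GTPase, had its highest levels with both fragments. It read 2.01, 2.04, 2.02 and 1.94 with WT, 1.45, 1.69, 1.77 and 1.79 with D361E, and 2.01, 2.10 and 1.71 with 1-361. It read 1.68, 1.87 and 1.83 with 362-549 and 2.63, 2.71 and 2.69 with both fragments. The 3 arrays with both fragments were above the other 14, and D361E and 362-549 were each below WT on every array.

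With both fragments Ifi47 rose by 0.68 ± 0.12 against WT (limma adjusted p = 0.00374; 0.70 in the 1 slide with both groups). It rose by 1.00 ± 0.12 against D361E (7.52e-05), by 0.74 ± 0.13 against 1-361 (0.00292) and by 0.89 ± 0.13 against 362-549 (0.000515). With slide as a block the call against WT was lost (0.64, adjusted p = 0.227), and so were those against 1-361 and 362-549, while that against D361E was kept in all other settings. In order of mean level the other groups were WT (2.00), 1-361 (1.94), 362-549 (1.79) and D361E (1.68). None of the 6 contrasts among these 4 was called, neighbours in this order included.

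Irgm1, a regulatory member tied to autophagy and to the survival of blood stem cells, was read by 2 probes that correlated at 0.91 over the 17 arrays. The brighter read 0.37, 0.13, 0.57 and 0.20 with WT, and -0.10, -0.07, 0.12 and -0.10 with D361E. It read -0.05, 0.30 and 0.04 with 1-361, 0.25, 0.13 and 0.63 with 362-549, and 0.79, 0.73 and 0.56 with both fragments. On this probe the D361E arrays were all below WT. The arrays with both fragments were above those of D361E and 1-361 while overlapping WT and 362-549. Against D361E both probes were higher with both fragments, by 0.73 ± 0.15 (limma adjusted p = 0.00688) and 0.78 ± 0.20 (0.0277). Against 1-361 the brighter probe was higher by 0.60 ± 0.16 (0.0348). The dimmer probe was not called there (0.39 ± 0.22, adjusted p = 0.25), and its groups overlapped. With slide as a block all 3 of these calls were lost, the first at an adjusted p of 0.0616. Within the 3 slides that hold D361E and both fragments, the brighter probe differed by 0.66 to 0.84.

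Irgm2, the regulatory neighbour of Igtp, read -0.96, -1.11, -0.75 and -0.77 with WT and -1.32, -1.03, -0.69 and -1.29 with D361E. It read -1.61, -1.16 and -1.52 with 1-361, -1.26, -1.07 and -0.69 with 362-549, and -0.69, -0.70 and -0.73 with both fragments. The 1-361 arrays were all below WT, and the 3 arrays with both fragments lay within a narrow range near the top. Irgm2 was higher with both fragments than with 1-361 by 0.72 ± 0.19 (limma adjusted p = 0.031). This call was lost with normexp, with no filter on dim probes (0.0834), with slide as a block (0.187) and without replicate 1 or 2 with both fragments or replicate 1 or 3 of 1-361 (0.09 to 0.109).

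Igtp, a regulatory member whose probe is printed on 10 spots per array, read 0.59, 0.41, 0.35 and 0.58 with WT and 0.25, 0.39, 0.40 and 0.38 with D361E. It read -0.06, 0.28 and 0.11 with 1-361, 0.25, 0.22 and 0.45 with 362-549, and 0.80, 0.83 and 0.25 with both fragments. Replicate 3 with both fragments stood apart from the other 2, and the 1-361 arrays were all below WT. The SD over the spots of 1 array had a median of 0.06 and reached 0.09, against an SD between arrays of 0.33 with both fragments. Igtp was called in none of the 10 contrasts. Its largest difference from WT was with 1-361, -0.37 ± 0.15 (limma adjusted p = 0.589). Its largest in any contrast was between both fragments and 1-361, 0.52 ± 0.16 (0.0536), which passed in 5 other settings, among them without replicate 3 with both fragments (0.70, adjusted p = 0.00582).

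Iigp1, an effector-type member that marks vacuoles for destruction, was called in no contrast. It read -3.12, -3.32, -3.14 and -3.16 with WT and split in D361E, at -2.40, -2.43, -3.43 and -3.61. It read -2.79, -3.22 and -3.24 with 1-361, -2.66, -3.10 and -2.68 with 362-549, and -3.30, -3.57 and -2.90 with both fragments. The 362-549 arrays were all above WT, by 0.37 ± 0.28 in the fit (limma adjusted p = 0.869), and its other groups overlapped WT.

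Against WT, then, the 4 forms differed in how many of the 11 GTPase probes were called. With D361E 0 were called (0.435% of all probes were), and 3 were lower at an unadjusted p under 0.05 (2.25% of all probes). They were Gbp7 (-0.34 ± 0.14), the brighter Irgm1 probe (-0.36 ± 0.14) and Ifi47 (-0.33 ± 0.12). Those 3 also did not overlap WT (1.51% of all probes were lower with no overlap), and their 95% intervals ran from -0.66 to -0.05. The dimmer Irgm1 probe (-0.34 ± 0.19, limma unadjusted p = 0.0906) overlapped WT. With 1-361 0 were called (0.637% of all probes), and 4 were lower at an unadjusted p under 0.05 (2.58%): Gbp2, Gbp3, Igtp and Irgm2. With both fragments 3 were called, 2 lower and 1 higher, where 4.57% of all probes were called, 2.87% lower and 1.7% higher. As a description, the median difference over the 11 probes was -0.19 with D361E, -0.22 with 1-361, -0.11 with 362-549 and 0.19 with both fragments, against 0.02, 0.04, 0.05 and 0.04 over all probes tested. In the fits that left out 1 array at a time these counts stayed at 0 for D361E and for 1-361, at 3 for both fragments and at 1 or 2 for 362-549.

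**Figure D2:**
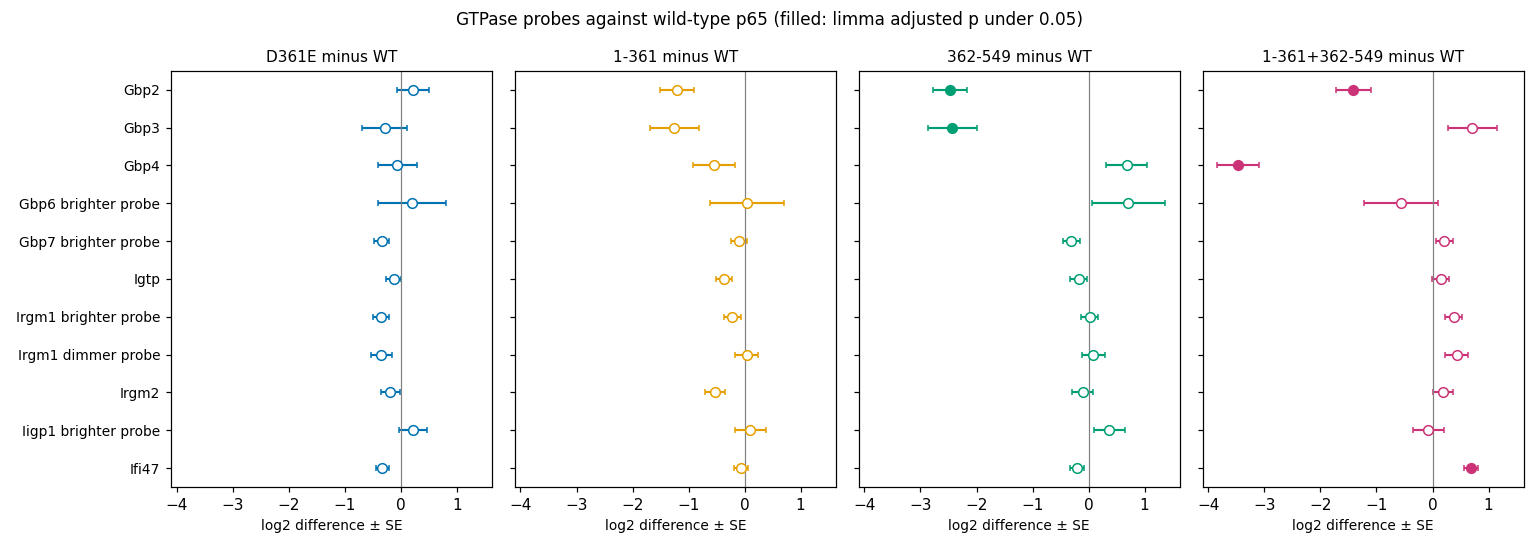
Log2 difference from WT with its SE for the 11 tested probes, 1 panel per form of p65, filled where the limma adjusted p was under 0.05. Gbp2 and Gbp3 are filled with 362-549, and Gbp2, Gbp4 and Ifi47 with 1-361+362-549, while the D361E and 1-361 panels hold open circles only.

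Another background correction ended these calls. With normexp (offset 50) in place of the scanner's processed signal, Gbp2 with 362-549 was -0.94 (limma adjusted p = 0.906), Gbp3 -1.37 (0.475), and with both fragments Gbp4 was -1.07 (0.52), Gbp2 -0.50 (0.933) and Ifi47 0.62 (0.203). All 5 kept their sign and none its call. Fewer probes of the whole array were called under that setting too, 27 in place of 123 for 362-549 and 205 in place of 904 for both fragments against WT.

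Some cell type markers moved with the group that held both fragments. The log2 of the summed signal of the 8 myeloid markers was 5.11 to 5.77 with both fragments and 6.02 to 6.42 on the arrays of the other groups, and that of the 8 macrophage markers was 0.05 to 1.43 against 1.03 to 2.42. Of the 5 myeloid and 4 macrophage markers tested, 1 of each was called lower against WT and none higher (2.87% and 1.7% of all probes). Adgre1, which codes for the macrophage antigen F4/80, averaged -5.19 with both fragments and -1.71 with WT. Cd68 averaged -0.81 and 0.54, while Csf1r (0.01 and 0.24) and C1qb (-4.04 and -3.97) differed less. Of 6 T cell markers tested, 1 was called higher and 2 lower. The summed signal of the 6 B cell markers was higher with both fragments, 1.23 to 1.49 against 0.67 to 1.05 with WT, but overlapped D361E (1.09 to 1.45). Of the 2 tested, 0 were called against WT. Cd79b, the brightest of the 6, averaged higher with both fragments than with WT (1.25 against 0.74) and Cd22 lower (-3.23 against -2.69). The part of these shifts in the GTPase differences was not tested.

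Between the forms other than WT, 16 of the 19 calls were in contrasts with both fragments. The whole array was alike in this. Of all 19774 probes, 1722, 1852 and 2614 were called with both fragments against D361E, 1-361 and 362-549. Only 181 were called for 1-361 against D361E, 230 for 362-549 against D361E and 106 for 362-549 against 1-361. The count is thus not particular to the GTPases. Against D361E, 6 of 11 probes were called with both fragments (8.71% of all probes), Gbp2 and Gbp4 lower (4.93%) and Gbp7, both Irgm1 probes and Ifi47 higher (3.78%). Gbp2 there fell by 1.63 ± 0.30 (limma adjusted p = 0.00307). Against 1-361, 5 were called (9.37%), Gbp4 lower (5.5%) and Gbp3, the brighter Irgm1 probe, Irgm2 and Ifi47 higher (3.86%). Against 362-549, 5 were called (13.2%), Gbp4 lower (8.09%) and Gbp2, Gbp3, Gbp7 and Ifi47 higher (5.13%). No slide held arrays of both these groups, so every difference between them rests on arrays of different slides. Gbp2 in that last comparison was fitted at 1.07 ± 0.33 higher (0.0428), but all 3 arrays of 362-549 were below background and the call was lost in 13 settings, so no fold is given.

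The single fragments gave no call against each other. Between 362-549 and 1-361 0 of 11 probes were called (0.536% of all probes), although 2 were lower (2.68%) and 2 higher (2.65%) at an unadjusted p under 0.05. They were Gbp2 and Gbp3 lower and Gbp4 and Irgm2 higher. Gbp4, detected on all 6 arrays, was higher with 362-549 by 1.23 ± 0.39 (limma adjusted p = 0.398), while Gbp2 was below background in both groups, so no fold is given. Against D361E, 362-549 gave 2 calls of 11 (1.16%), both lower (0.759%), with Gbp2 at least 2.14-fold lower (adjusted p = 0.000122) and Gbp3 at -2.15 ± 0.44 (0.0239). The Gbp3 call was lost with slide as a block and without any 1 of 5 arrays (each of 362-549 and replicate 2 or 4 of D361E). Against D361E, 1-361 gave 1 call (0.915%, and 0.445% lower), Gbp2 at least 2.34-fold lower (0.0366), and that call was lost in 15 of 25 other settings.

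The families were compared per array as the mean over 5 genes each, taken relative to WT, with dim values kept as read and with no test, since the genes were chosen knowing results of these data. With both fragments the guanylate-binding mean was -0.84, -0.71 and -1.16 and the immunity-related mean 0.31, 0.26 and 0.23. The families thus lay on opposite sides of the WT mean on all 3 arrays, with a difference of -1.17 ± 0.21 (SD, n = 3) that was -0.52 with normexp. Much of this came from Gbp4, which was not well above background on these arrays, as without it the guanylate-binding mean was -0.26 ± 0.16 and the difference -0.53 ± 0.13. With 362-549 the guanylate-binding mean was -0.45, -0.84 and -1.001 and the immunity-related mean -0.09, -0.13 and 0.17, a difference of -0.75 ± 0.40 (SD, n = 3) that was -0.38 with normexp. There Gbp2 and Gbp3 carried the difference, which was -0.32 ± 0.40 without Gbp2 and -0.33 ± 0.36 without Gbp3, while Gbp4 and Gbp6 had estimates above WT. With 1-361 the difference was -0.40 ± 0.41 (SD, n = 3), and with D361E 0.10 ± 0.25 (SD, n = 4), against 0 ± 0.33 (SD, n = 4) for WT, which is 0 by construction. The 1-361, D361E and WT arrays overlapped on this measure. The mean with both fragments also hides opposite members, since Gbp3 and Gbp7 had estimates above WT with both fragments while Gbp2, Gbp4 and Gbp6 had estimates below.

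**Figure D3:**
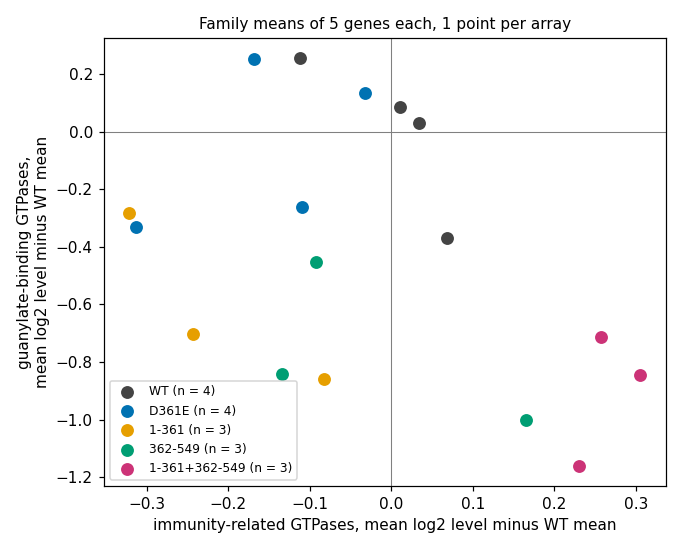
Mean log2 level of the 5 guanylate-binding genes (vertical) against that of the 5 immunity-related genes (horizontal), both minus the WT mean, 1 point per array. The 3 arrays of 1-361+362-549 lie at the lower right, at 0.23 to 0.31 across and -1.16 to -0.71 up.

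Over the 17 arrays the immunity-related genes followed each other more than the guanylate-binding genes did. The median Pearson correlation was 0.51 over 10 immunity-related pairs (-0.43 to 0.76), -0.12 over 10 guanylate-binding pairs (-0.57 to 0.64) and -0.17 over 25 pairs between the families (-0.89 to 0.73). These are descriptions, as all points share the arrays and their 5 groups. Igtp, Irgm1 and Irgm2 correlated at 0.63 to 0.74, and Ifi47 at 0.76 with Irgm1, while Iigp1 was negative with each of the other 4. Gbp2 and Gbp3 correlated at 0.64. The most negative pair was Gbp4 and Ifi47 at -0.89, the genes that fell and rose with both fragments. The genes outside the 10 most like the guanylate-binding mean were Plcd4 (0.91), Ptgir (0.88), Ceacam2 (0.86), Ly6g6d (0.86) and Cerk (0.85). Those most like the immunity-related mean were Fbxl15 (0.87), Sugt1 (0.85), Med7 (0.85), Eci3 (0.83) and Mocs2 (0.83).

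These genes lie in clusters, and grouping them by chromosome, which was done after the values were seen, set neighbours that fell beside neighbours that did not. With both fragments 3 of the 5 chromosome 5 genes tested fell against WT (2.87% of all probes did): Gbp9 (-2.24 ± 0.36, limma adjusted p = 0.0013), Gbp4 as above and Gbp11 (-2.52 ± 0.37, 0.000547). Gbp10 (0.57 ± 0.30) and Gbp6 (-0.56 ± 0.65) lie between Gbp4 and Gbp11 on the array's coordinates and were not called. Gbp9 read -4.00, -4.72 and -3.85 with both fragments against -2.55, -2.17, -1.40 and -1.67 with WT, and Gbp11 read -5.75, -5.43 and -4.48 against -3.17, -2.57, -2.04 and -3.02. Neither gene's groups overlapped, and 1 of the 3 Gbp11 arrays with both fragments was not well above background. Gbp9 lost its call with slide as a block (0.057), and both lost it with normexp. With 362-549 alone all 5 chromosome 5 estimates were above 0, from 0.05 to 0.76, and 0 were called. There the 2 calls, Gbp2 and Gbp3, were both among the 4 chromosome 3 genes tested, with Gbp5 at 0.63 ± 0.46 and Gbp7 at -0.31 ± 0.15 (adjusted p = 0.86 and 0.619).

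On chromosome 11, 2 of 6 genes tested rose with both fragments (1.7% of all probes did), Ifi47 and its neighbour Tgtp2, a T-cell-specific GTPase of the immunity-related family. Tgtp2 read 1.18, 0.91, 0.64 and 0.82 with WT, 0.19, 0.27, 0.20 and 0.48 with D361E, and 0.52, 0.42 and 0.60 with 1-361. It read 0.42, 0.27 and 0.10 with 362-549 and 2.27, 2.21 and 1.89 with both fragments. The arrays with both fragments were above all others and the WT arrays came next. Tgtp2 rose by 1.24 ± 0.15 against WT (limma adjusted p = 8.46e-05), a call kept in all 26 other settings. With D361E (-0.60 ± 0.14, adjusted p = 0.0967) and 362-549 (-0.62 ± 0.15, 0.106) it did not pass. Tgtp1 and Tgtp2 are nearly identical copies, so their probes may share signal. Tgtp1 was detected on 2 arrays in all, both with 1-361+362-549, and was not tested.

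**Figure D4:**
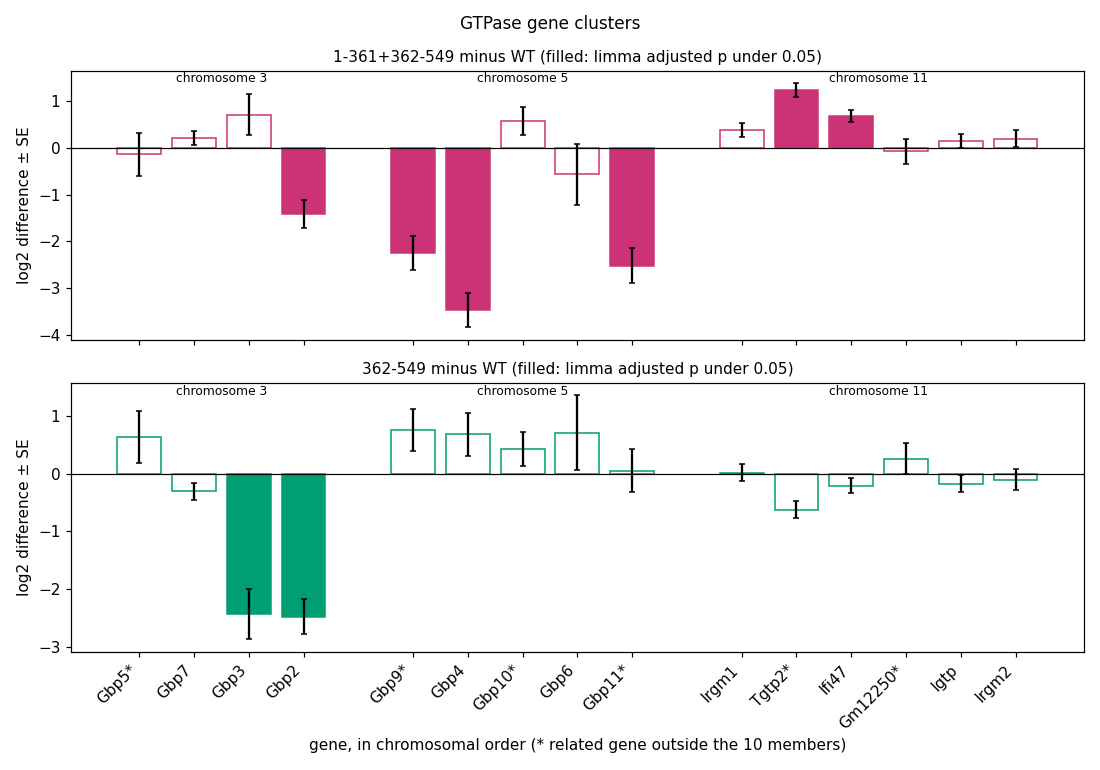
Log2 difference from WT with its SE for GTPase genes of chromosomes 3, 5 and 11 in chromosomal order, with both fragments above and 362-549 below, filled where the limma adjusted p was under 0.05. Filled falls sit on chromosome 5 in the upper panel (Gbp9, Gbp4, Gbp11) and on chromosome 3 in the lower (Gbp3, Gbp2).

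Of the 13 related GTPases tested from a list of 22, 2 rose (Tgtp2 and Mx2) and 2 fell (Gbp9 and Gbp11) with both fragments (1.7% and 2.87% of all probes; median 0.12), and 0 were called with the other 3 forms against WT. Mx2, a dynamin-like antiviral GTPase, rose by 1.63 ± 0.25 (limma adjusted p = 0.000687), from -2.49, -3.12, -2.99 and -3.07 with WT to -0.9955, -1.29 and -1.56. Its arrays with both fragments were above all 14 others. The call was lost with slide as a block (0.0748) and with normexp (0.24).

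Among 16 interferon signalling genes tested, 2 rose and 2 fell with both fragments against WT (1.7% and 2.87% of all probes), with a median difference of -0.03 against 0.04 over all probes, and 0 were called with each other form. Irf9, an interferon regulatory factor of type I interferon signalling, rose by 0.62 ± 0.13 (limma adjusted p = 0.0111), and Irf7, a driver of type I interferon, rose by 1.18 ± 0.28 (0.0244). The feedback inhibitors Socs1 and Socs3 fell by 1.44 ± 0.27 (0.00461) and 1.10 ± 0.15 (0.000232). Socs1 read 0.51, 0.69 and 0.56 with both fragments against 1.93, 2.27, 2.52 and 1.41 with WT, and Socs3 read -0.27, -0.39 and -0.19 against 0.54, 0.89, 1.06 and 0.79. The groups did not overlap for either gene. Socs3 kept its call in every other setting. The calls of Irf7, Irf9 and Socs1 were lost with slide as a block (0.442, 0.16 and 0.16), and those of Irf7 and Irf9 also without any 1 of several arrays. With 362-549, where Gbp2 and Gbp3 fell, Socs3 was higher than with D361E by 1.13 ± 0.15 (0.000577) and than with 1-361 by 0.93 ± 0.16 (0.0126). Irf1 was called in none of the 10 contrasts (0.10 ± 0.19 with both fragments against WT).

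**Figure D5:**
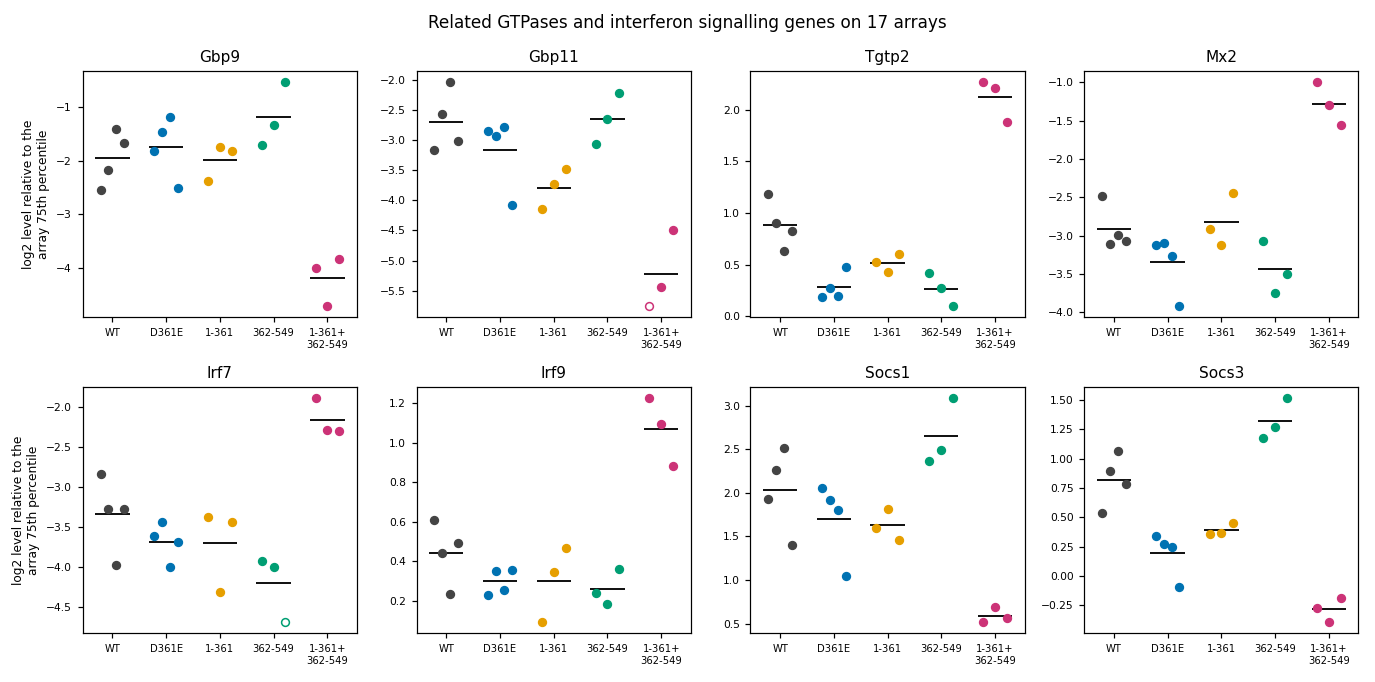
Log2 level relative to the 75th percentile of the array for 8 related GTPase and interferon signalling genes, 1 point per array with group means as bars and open circles where the probe was not well above background. Gbp9, Gbp11, Socs1 and Socs3 have their lowest arrays in 1-361+362-549, and Tgtp2, Mx2, Irf7 and Irf9 their highest.

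Of 19 other genes tested that interferon-gamma induces, 0 were called with both fragments, with 362-549 or with D361E against WT. Over all probes 4.57%, 0.622% and 0.435% were called there, so 0 of 19 is near those shares. The median difference of the 19 with both fragments was -0.02. With 1-361 2 of the 19 fell against WT, where 0.303% of all probes were called lower. They were the Fc receptor gene Fcgr1 (-1.05 ± 0.21, limma adjusted p = 0.0263) and Ifi204 (-2.05 ± 0.41, 0.0263), of the interferon-inducible DNA-sensor family. Each call was lost in at least 8 other settings. The chemokine gene Cxcl10 was higher with both fragments than with 1-361 by 1.94 ± 0.40 (0.00768) and than with 362-549 by 1.72 ± 0.40 (0.0128). Of 20 autophagy and inflammasome genes, which code for partners of these GTPases, 1 rose and 1 fell with both fragments against WT, where 1.7% of all probes rose and 2.87% fell. Nlrp3, an inflammasome sensor, was fitted 2.52 ± 0.58 higher (0.0183) but was detected on 3 arrays only. Casp1, the inflammasome protease, fell by 0.42 ± 0.11 (0.0428), and that call was lost in 16 of 26 other settings.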

How the data were processed

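RNA of 17 samples was hybridised with Cy3 to 1-colour Agilent arrays. The deposited values are spot intensities, which the authors obtained with Agilent's Feature Extraction software, version 10.7.3.1 (scan protocol GE1_107_Sep09), per the file headers and the submitters' processing notes. That step subtracted background, and the series-wide table of values holds the same intensity values. Each array has 44397 spots, 43020 of them not controls.

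From these, log2 of the processed signal minus the 75th percentile of each array was computed here, outlier spots were left out and spots of 1 probe averaged. Another 132 probes lost all spots somewhere and were dropped. Tests took in the 19774 of 39429 probes that were well above background, by 50% or more of their spots, throughout 1 or more groups. Differences were tested by probe with limma 3.58.1 in R 4.3.3, with 1 model of 5 groups and 10 contrasts, and adjusted by Benjamini-Hochberg within each contrast over all probes tested. A probe was called at an adjusted p under 0.05. The steps were tested on simulated data. RefSeq symbols (GRCm38.p6) came through probe accessions (27508 probes named, 11921 left with the name in the file), while the 10 members were found by the name in the file.

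The number of arrays limits the precision. Groups came from the source names, and replicates were numbered in order of deposit. The members, the gene lists and the tests were chosen with earlier results of these data known. Named genes were all members, Irf1, Socs1, Tgtp1 and Tgtp2, up to 4 called genes per list and contrast, and the 5 genes most correlated with each family mean. The 4 gene lists and 8 marker lists were written by hand, and some of their genes are not reported here. Alternatives were other scaling, normexp background correction, other filters, 1 probe per symbol, the mean of a gene's probes, slide (6 slides of 2 to 4 arrays) as a fixed or random block, title rounds as a block, and leaving out each array. All arrays were scanned on 1 day, so no block for scan day was run.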

Additional observations from a re-analysis of the deposited data

Results flagged for a closer look

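In 2 of the 22 groups of 4 arrays looked at (11 probes in WT and in D361E), 1 array lay far from the other 3, by a gap whose share of the group's range passed Dixon's critical value at 95%. Chance gives about 1 in 20 such groups. Gbp7 read -2.48 on D361E replicate 4, where the other 3 lay between -2.08 and -2.02. Igtp read 0.25 on D361E replicate 1, where the other 3 lay between 0.38 and 0.40. Neither gene was called between D361E and WT with all arrays.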

How the results depend on the processing

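All 24 called pairs of probe and contrast kept their sign in every setting run, while 26 of the 86 uncalled pairs changed sign in at least 1. Calls were less stable, and the cause was not tested. With normexp the number of GTPase probes called went to 0 for 362-549 against WT, both fragments against WT, 1-361 against D361E, 362-549 against D361E, both fragments against 1-361 and the F-test, to 1 for both fragments against D361E and to 2 for both fragments against 362-549, and the family difference with both fragments moved to -0.52. Leaving out 1 guanylate-binding gene at a time, an alternative chosen after seeing the data, moved that difference to -1.57 without Gbp3, -0.53 without Gbp4 and -1.45 without Gbp7, and that with 362-549 to -0.32 without Gbp2 and -0.33 without Gbp3. With slide as a fixed block the counts were 1 for 362-549 against WT, 1 for both fragments against WT, 0 for 1-361 against D361E, 1 for 362-549 against D361E, 3 for both fragments against D361E, 1 for both fragments against 1-361 and 2 for both fragments against 362-549. Limited to the 8 GTPase probes detected on all 17 arrays, which leaves out Gbp2, Gbp3 and Gbp4, the counts were 0 for 362-549 against WT, 1 for both fragments against WT, 0 for 1-361 and 0 for 362-549 against D361E, 3 for both fragments against 1-361, 2 for both fragments against 362-549 and 2 for the F-test. With no filter they were 0 for 1-361 against D361E, 1 for 362-549 against D361E, 3 for both fragments against 1-361 and 3 for both fragments against 362-549. Without scaling they were 0 for 1-361 against D361E, 9 for both fragments against 362-549 and 8 for the F-test, and with quantile normalization 0 for 1-361 against D361E. Leaving out 1 array at a time gave 1 to 2 for 362-549 against WT, 0 to 1 for 1-361 against D361E, 1 to 2 for 362-549 against D361E, 4 to 8 for both fragments against D361E, 2 to 6 for both fragments against 1-361, 3 to 6 for both fragments against 362-549 and 4 to 6 for the F-test. Over all probes, both fragments against WT gave 904 calls, 507 without scaling, 205 with normexp and 283 with slide as a block.

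With title rounds (the runs of leading numbers in the sample titles) as a replicate block, 1 GTPase probe was called for 1-361 against WT (Gbp2), 1 for 362-549 against 1-361 (Gbp2) and 8 in the F-test, and 5852 of all probes for both fragments against WT. The same block also called Gbp3 higher with both fragments against WT (0.95, limma adjusted p = 0.0234) and against D361E (1.24, 0.00548). With both fragments it also called Igtp higher against 1-361 (0.52, 0.0245). Against 362-549 it called the brighter Irgm1 probe higher (0.36, 0.0428) and Gbp6 lower (-1.27, 0.0496) with both fragments. Arrays of the same round had deviations from their group means that correlated at a median of 0.42 over 31 pairs (-0.17 to 0.73), against -0.16 over 84 pairs of different rounds. As not every same-round pair was over 0.1 and the labels do not say what a round is, the rounds were not taken to pair the arrays. As a random block, slide had a correlation of -0.06. Signal over background limits Gbp2 and Gbp4, whose low groups are known mostly as bounds, and 1 array of Gbp3.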
